A study of Rattus norvegicus with 6 samples.

Results

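The genes that make and steer pre-mRNA splicing were followed in neurons taken from the dorsal root ganglia (DRGs) at L1 and L2 of the spontaneously hypertensive rat (SHR), an inbred strain in which blood pressure rises without further treatment. All animals were labelled wild type with an age of 6 to 8 weeks, whereas the study's methods describe older rats at purchase. In 1 group the perirenal adipose tissue had been removed by surgery (PRATA), and the other group had a sham operation, with 3 samples each collected weeks later. Neurons were separated from glia by their slower attachment to the culture dish, so that some glial RNA could remain, and total RNA was sequenced after cleavage of ribosomal fragments. Every protein-coding row whose symbol begins with Hnrnp, Srsf and a digit, Snrp, Sf3a or Sf3b and a digit, U2af, or Prpf and a digit was taken, together with Rbfox1 to Rbfox3, Celf1 to Celf6, Nova1, Nova2, Elavl1 to Elavl4 and Ptbp1 to Ptbp3. This gave 87 of the 25689 genes in the deposited count table, and 85 of them were among the 14919 genes with enough counts to be tested. Snrpd2l, with counts of 0, 0, 0, 0, 0 and 2, and Srsf8, with counts of 0, 1, 0, 0, 5 and 0, were not tested.

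Splicing removes introns in the spliceosome, a machine built on small nuclear RNAs that are wrapped in Sm proteins (the Snrp genes) and completed by SF3A, SF3B and the PRPF proteins. SR proteins (Srsf) mostly promote and hnRNP proteins often repress the use of nearby splice sites, and U2AF finds the end of the intron. On top of this general machinery neurons express their own regulators, among them NOVA, RBFOX, neuronal ELAVL (Hu) proteins, some CELF proteins and PTBP2, which set the neuronal pattern of exons. The members were therefore described in 3 classes, which are 69 general splicing genes (67 tested), 12 neuronal regulators (Rbfox1, Rbfox3, Celf3 to Celf6, Nova1, Nova2, Elavl2 to Elavl4 and Ptbp2) and 6 widely expressed paralogs of these regulators (Rbfox2, Celf1, Celf2, Elavl1, Ptbp1 and Ptbp3).

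The general genes lay mostly lower and the neuronal regulators mostly higher after PRATA, and no single gene passed the adjusted test. The median log2 fold change (PRATA against sham) was -0.44 over the 67 general genes, with 59 below and 8 above 0. It was 0.57 over the 12 neuronal regulators, with 11 above 0, and -0.45 over the 6 paralogs, with 5 below 0. Over all 14919 genes tested the median was 0.02. With edgeR's quasi-likelihood test and Benjamini-Hochberg adjustment 0 genes (0% of all tested) had an adjusted p under 0.05, beside 1512 lower and 1222 higher at an unadjusted p under 0.05, 728 at an adjusted p under 0.05 by DESeq2 and 1173 by limma voom with sample quality weights. Members are therefore counted below at an unadjusted p under 0.05 and by whether all 3 PRATA samples lay on one side of all 3 sham samples, and these counts are read against the same counts over all genes.

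Promoters of members are shown first, because the sequence before their start is a feature that the choice of members did not use. A RefSeq promoter (assembly GRCr8, 250 bases before to 50 after the start) was found by symbol for 76 of the 85 tested members. The genome build behind the counts is not given in the sources used here, so the positions below belong to RefSeq alone. In the sequences, written 5′ to 3′ on the strand of the gene, capitals mark 3 short motifs on either strand. CCGGAAG is a core bound by ETS factors. A further one, GGGCGG, is the GC box of many housekeeping promoters. The last, CCAAT, gives the box its name. Shown are the Snrp promoters with CCGGAAG, chromosome 18 left out, of the 2 lower genes with the smallest p, the Hnrnp promoter with CCAAT by the same rule, and those of the 2 neuronal regulators with the smallest p that had a promoter.
Snrpb2 lies at chr3:150852584-150852883 on the plus strand with 22 CpG dinucleotides. Snrpg lies at chr4:120369461-120369760 on the plus strand with 24 CpG dinucleotides. Hnrnpab lies at chr10:36363849-36364148 on the minus strand with 30 CpG dinucleotides. Celf3 lies at chr2:184804841-184805140 on the plus strand with 9 CpG dinucleotides. Celf6 lies at chr8:68870843-68871142 on the plus strand with 26 CpG dinucleotides.
Snrpb2: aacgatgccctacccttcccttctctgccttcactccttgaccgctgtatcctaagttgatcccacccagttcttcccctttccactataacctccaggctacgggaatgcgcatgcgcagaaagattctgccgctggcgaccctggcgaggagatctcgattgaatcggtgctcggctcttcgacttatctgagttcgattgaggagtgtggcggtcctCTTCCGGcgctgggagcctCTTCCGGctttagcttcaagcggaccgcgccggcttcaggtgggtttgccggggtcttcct
Snrpg: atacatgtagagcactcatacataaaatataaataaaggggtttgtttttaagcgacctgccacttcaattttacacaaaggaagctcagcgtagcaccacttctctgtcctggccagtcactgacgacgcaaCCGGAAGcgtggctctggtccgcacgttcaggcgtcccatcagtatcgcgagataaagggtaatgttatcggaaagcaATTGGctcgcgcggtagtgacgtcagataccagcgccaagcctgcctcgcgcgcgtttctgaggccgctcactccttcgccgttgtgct
Hnrnpab: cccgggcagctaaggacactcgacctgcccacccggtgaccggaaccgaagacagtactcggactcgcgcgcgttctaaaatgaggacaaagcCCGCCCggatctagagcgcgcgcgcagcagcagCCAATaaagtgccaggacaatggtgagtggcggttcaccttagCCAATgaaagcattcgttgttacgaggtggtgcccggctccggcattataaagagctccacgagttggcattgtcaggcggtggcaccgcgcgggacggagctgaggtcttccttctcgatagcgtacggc
Celf3: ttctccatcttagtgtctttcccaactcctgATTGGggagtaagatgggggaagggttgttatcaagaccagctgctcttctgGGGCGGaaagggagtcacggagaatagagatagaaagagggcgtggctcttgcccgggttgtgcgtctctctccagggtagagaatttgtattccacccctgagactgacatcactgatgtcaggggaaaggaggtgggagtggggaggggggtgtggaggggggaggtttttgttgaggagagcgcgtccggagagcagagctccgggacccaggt
Celf6: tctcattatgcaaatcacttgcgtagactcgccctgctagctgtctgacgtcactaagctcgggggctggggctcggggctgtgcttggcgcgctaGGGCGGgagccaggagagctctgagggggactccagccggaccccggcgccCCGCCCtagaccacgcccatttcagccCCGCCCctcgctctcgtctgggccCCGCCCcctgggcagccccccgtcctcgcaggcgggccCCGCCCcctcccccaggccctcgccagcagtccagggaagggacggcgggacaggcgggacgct

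CCGGAAG stood in 18 of 63 promoters of general genes (28.6%) and in 0 of 10 promoters of neuronal regulators, against 9.22% of all 27457 promoters and 13.8% of 13422 promoters of protein-coding genes in the count table. It was found in 5 of 12 Snrp promoters (Snrpb, Snrpb2, Snrpd1, Snrpe and Snrpg), 4 of 8 Sf3 promoters and 4 of 11 Srsf promoters, but in 2 of 18 Hnrnp promoters. Of the genes with the motif, these Snrp genes, Srsf7, Hnrnpd and Hnrnpf were lower at an unadjusted p under 0.05. The Sf3 genes, Prpf6, Prpf18, Prpf19, Srsf4, Srsf5 and Srsf11 carried it and did not pass, with Prpf19 and Srsf5 above 0. Among all 67 tested general genes, with or without the motif, 28 (41.8%) were lower at this p. Whether the motif goes with the fold change was not tested. The Hnrnp family carried another motif, since 16 of its 18 promoters held CCAAT (88.9%), against 37.6% of the protein-coding promoters, with Hnrnpd and Hnrnph1 as the exceptions. GGGCGG was found in 57.1% of general and 7 of 10 neuronal promoters, against 54.3% of the protein-coding promoters. TATAAA stood in 6 of the 63 general promoters (9.52%) and in 9.30% of the protein-coding ones. CTCGCGAG stood in 3 general promoters (4.76%) against 1.48%, GCATGCGC in 4 of 63 (6.35%) general promoters against 4.08%, and TGACGTCA in 2 of 63 (3.17%) against 2.64%. The median number of CpG dinucleotides was 24 in general and 18.5 in neuronal promoters, and 18 in the protein-coding ones. Motifs were searched as these letters and their reverse complements, the same base could serve more than 1 motif, and a match describes the sequence, not a bound site.

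The libraries differed in depth and make-up, which bears on all values below. Total counts lay between 5892967 (sham replicate 2) and 15226952 (sham replicate 1), so that 3 counts correspond to 0.197 to 0.509 CPM (counts scaled to a common library size, with TMM factors in all values of genes). The sensory neuron genes Tubb3 (874 to 1847 CPM) and Prph (1407 to 3091 CPM) were high in every sample. The mean log2(CPM + 1) of 27 sensory neuron markers was 8.86, 8.55 and 8.90 in the PRATA samples and 8.03, 8.58 and 8.22 in the sham samples. At an unadjusted p under 0.05, 9 of 28 such markers were higher (32.1%, against 8.19% of all genes). At this p 1 (Ntrk2) was lower (3.57%, against 10.1% of all genes). The 11 satellite glia markers summed to 4295, 6705 and 3749 CPM against 8018, 4830 and 9091 CPM, most of it from Apoe alone (3319, 5229 and 2779 CPM after PRATA and 6283, 3707 and 7473 CPM in the sham samples). Of the 11, 10 had log2 fold changes below 0, and none of the list was at 0 in all samples. Sox10 alone passed at p under 0.05 (9.09%, near the 10.1% of all genes), with a log2 fold change of -1.63 ± 0.38 (SE). Sham replicate 2 was thus closer to the PRATA samples than the other sham samples in both lists. Of 11 Schwann cell markers 10 had log2 fold changes above 0, and 3 were higher at p under 0.05 (27.3%, against 8.19% of all genes). Of 11 fibroblast markers 9 were below 0, and 2 were lower at this p (18.2%, against 10.1% of all genes). Above 0 were also 10 of 11 macrophage, 8 of 9 endothelial and 5 of 8 vascular mural markers. PRATA replicate 3 and sham replicate 1 stood apart in the signal recognition particle RNA Rn7sl1, with 696381 and 856831 counts against 73563 to 163922 in the other 4 libraries. A further row for this RNA went the other way, with 7744 and 4286 counts in the same pair against 79085 to 181064. The excess of the pair in Rn7sl1 was larger than its shortfall in this row, and the cause was not tested. The counts of calls by class and the ratios of the ELAVL and PTBP paralogs are also given without this pair. In bulk RNA, fewer cells of a type and less RNA per cell cannot be told apart.

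Among the general genes, 28 of 67 (41.8%) were lower at an unadjusted p under 0.05, where 10.1% of all genes were, and 1 (1.49%) was higher, where 8.19% of all genes were. All PRATA samples lay below all sham samples in 24 genes (35.8%, against 11.2% of all genes) and above them in 1 gene (1.49%, against 11.6%). The differences were small. Snrpa alone passed both p under 0.05 and a log2 fold change under -1, a threshold met by 3.23% of all genes, and no general gene passed the opposite threshold, met by 1.17% of all genes. Summed over the 67 genes, the level was 5803, 5894 and 5542 CPM after PRATA and 8487, 5886 and 8346 CPM after the sham operation. The PRATA samples lay close together, and sham replicate 2 fell among them while the other sham samples were well above. The median coefficient of variation of the general genes was 9.25% over PRATA samples and 21.4% over sham samples, compared with 17.3% and 23.6% over all genes. Sham replicate 2 was the lowest sham sample in 55 of the 67 genes. How often this holds over all genes was not counted. The count of 28 lower genes was 38 without sham replicate 2, 19 without sham replicate 1, 10 without sham replicate 3, 17 without PRATA replicate 1, 14 without PRATA replicate 2 and 17 without PRATA replicate 3. In the 4 samples without PRATA replicate 3 and sham replicate 1 it was 9, and the median log2 fold change was -0.32. Over all genes, both directions together, 2734 of 14919 were called with all samples. Without sham replicates 2, 1 and 3 they were 4254 of 15438, 2364 of 15360 and 1471 of 15758. Without PRATA replicates 1, 2 and 3 they were 1406 of 15774, 2371 of 15408 and 2000 of 15323. In the 4 samples 1907 of 14808 were called. PRATA replicate 2 and sham replicate 2 were alike in the general genes (5894 and 5886 CPM) and in the mean of the sensory neuron markers (8.55 and 8.58). Their satellite glia markers summed to 6705 and 4830 CPM. The part of the marked cell types in the lower general genes was not tested.

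**Figure D1:**
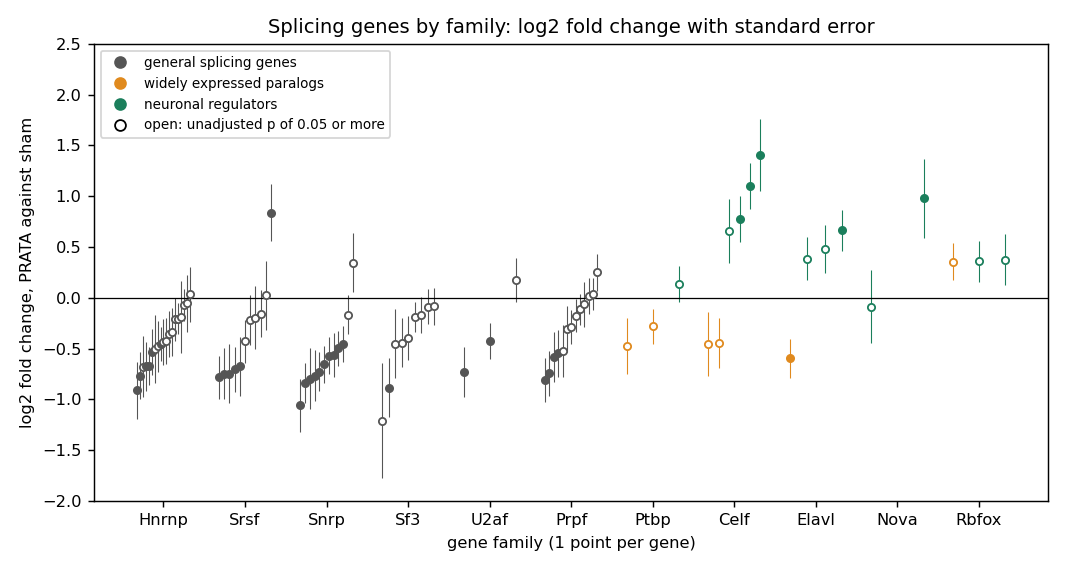
Log2 fold change of each of the 85 tested members by family, with its standard error; points are filled where the unadjusted p was under 0.05, and colours give the class. The general families lie mostly below 0, with 10 of 12 Snrp genes filled (83.3% lower, against 10.1% of all genes), and Celf3 to Celf6 lie above 0.

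**Figure D2:**
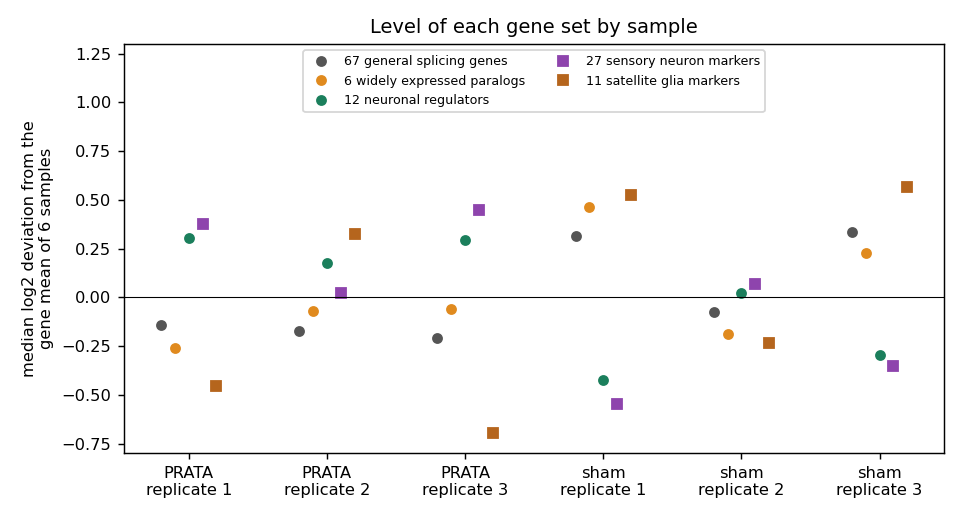
Median deviation of each gene set from the gene means over the 6 samples (log2 scale), with 1 point per set and sample. The general genes lie between -0.21 and -0.14 in the PRATA samples and at 0.31, -0.07 and 0.34 in sham replicates 1, 2 and 3, and the sensory neuron markers lie highest in PRATA replicates 1 and 3, near 0 in PRATA replicate 2 and sham replicate 2, and lowest in sham replicates 1 and 3.

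The small nuclear ribonucleoprotein genes differed most evenly. Of 12 tested Snrp genes, 10 were lower at p under 0.05 (83.3%, against 10.1% of all genes), with a family median of -0.61. The same number had PRATA samples all below sham samples (83.3%, against 11.2% of all genes). Snrpf, which encodes the SmF subunit of the Sm ring, read 18.7, 18.6 and 17.6 CPM after PRATA and 29.4, 27.9 and 40.7 CPM in the sham samples. The groups did not overlap, at a log2 fold change of -0.84 ± 0.20 (SE; adjusted p = 0.156). Snrpa encodes the A protein of the U1 particle, which binds a loop of U1 RNA, and it read 4.13, 5.42 and 5.85 CPM after PRATA and 12.7, 8.74 and 10.7 CPM in the sham samples. Each PRATA sample was below each sham sample, at a log2 fold change of -1.06 ± 0.26 (SE; adjusted p = 0.158), from 32 to 184 counts per library. Snrpa1, a subunit of the U2 particle, read 14.2, 12.5 and 15.3 CPM after PRATA and 24.4, 19.2 and 25.8 CPM in the sham samples, at a log2 fold change of -0.73 ± 0.19 (SE; adjusted p = 0.168). Its partner Snrpb2 (-0.77 ± 0.25) and the U1-specific Snrpc (-0.57 ± 0.19) also showed separate groups. Of the 7 Sm core genes, 6 were lower at p under 0.05 (85.7%, against 10.1% of all genes). Snrpf was lowest, then Snrpg (-0.80 ± 0.30), Snrpd1 (-0.66 ± 0.19), Snrpb (-0.56 ± 0.21), Snrpd3 (-0.50 ± 0.17) and Snrpe (-0.46 ± 0.18). These 6 genes also had separate groups (85.7%, against 11.2% of all genes). Snrpd2 was the exception at -0.17 ± 0.19, adjusted p = 0.676, with overlapping groups.

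Snrpn encodes SmN, a close relative of the SmB protein of Snrpb that is abundant in neurons. It read 62.1, 74.4 and 100.3 CPM after PRATA and 40, 82.3 and 64.7 CPM in the sham samples, so that the groups overlapped, at a log2 fold change of 0.35 ± 0.29 (SE; adjusted p = 0.55). Without PRATA replicate 3 and sham replicate 1 its log2 fold change was -0.11. The log2 ratio of Snrpn to Snrpb, chosen after the values were seen, was 0.57, 0.83 and 1.25 in the PRATA samples and -0.76, 0.90 and -0.20 in the sham samples, and these ranges overlapped. Snrpn and Snrpb are similar in sequence, and how reads that match both were counted is not given in the sources used here.

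**Figure D3:**
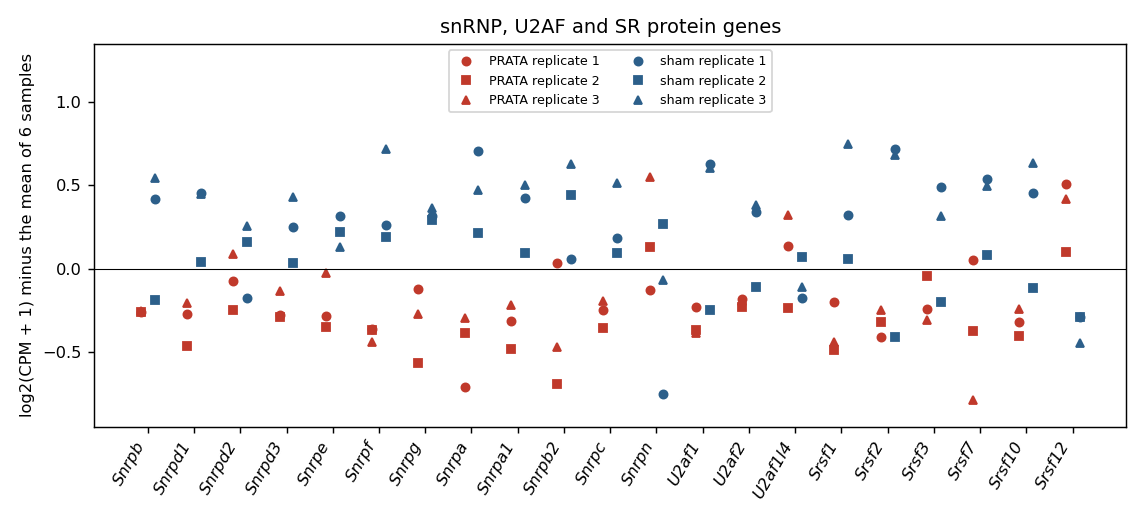
Log2(CPM + 1) minus the mean of the 6 samples for 12 Snrp, 3 U2af and 6 Srsf genes; red marks PRATA, blue sham, and the marker shape the replicate number. Sham replicates 1 and 3 lie above the PRATA samples in most genes, sham replicate 2 often lies between, and Srsf12 has the opposite order.

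Of 11 tested SR protein genes, 5 were lower (45.5%, against 10.1% of all genes) at p under 0.05, with a family median of -0.43. At this p 1 gene was higher (9.09%, against 8.19% of all genes). Srsf1, the archetypal SR protein, read 112, 91.1 and 93.9 CPM after PRATA and 160.4, 134 and 216 CPM in the sham samples. The groups were separate, at a log2 fold change of -0.78 ± 0.21 (SE; adjusted p = 0.168). Srsf10, which represses splicing when it loses its phosphates, read 25.4, 23.9 and 26.8 CPM after PRATA and 44.2, 29.3 and 50.2 CPM in the sham samples, again without overlap, at a log2 fold change of -0.70 ± 0.22 (SE; adjusted p = 0.187). Srsf7, an SR protein with a zinc knuckle, read 32.8, 24.1 and 17.9 CPM after PRATA and 46.4, 33.6 and 45.2 CPM in the sham samples, at a log2 fold change of -0.75 ± 0.25 (SE; adjusted p = 0.205). Srsf9 (-0.67 ± 0.29) had separate groups and Srsf2 (-0.75 ± 0.29) overlapped in sham replicate 2. Srsf12, a relative of Srsf10, went the other way and read 6.97, 5.02 and 6.48 CPM after PRATA and 3.59, 3.59 and 3.12 CPM in the sham samples, from 23 to 82 counts per library. The groups did not overlap, at a log2 fold change of 0.84 ± 0.28 (SE; adjusted p = 0.2). The log2 ratio of Srsf12 to Srsf10, chosen after the values were seen, was therefore -1.87, -2.25 and -2.05 after PRATA and -3.62, -3.03 and -4.01 in the sham samples. Srsf5, the other family member above 0, read 161, 169 and 143 CPM after PRATA and 232, 80.7 and 152 CPM in the sham samples, at 0.02 ± 0.34 and adjusted p = 0.979. Its sham samples spanned the whole PRATA range, and its sign turned in some alternatives.

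Of 19 hnRNP genes, 18 had log2 fold changes below 0 and 6 were lower at p under 0.05 (31.6%, against 10.1% of all genes), with a median of -0.44. Hnrnpab, a protein that binds both DNA and RNA, read 104, 115 and 102 CPM after PRATA and 160.0, 142 and 209 CPM in the sham samples, at a log2 fold change of -0.67 ± 0.19 (SE; adjusted p = 0.171). Hnrnpf, which recognises runs of G near splice sites, read 205, 241 and 224 CPM after PRATA and 422, 275 and 441 CPM in the sham samples, at a log2 fold change of -0.77 ± 0.23 (SE; adjusted p = 0.175). Both genes had separate groups. Hnrnpa3, a relative of the repressor hnRNP A1, read 107, 109 and 96.4 CPM after PRATA and 236, 114 and 238 CPM in the sham samples, at a log2 fold change of -0.91 ± 0.28 (SE; adjusted p = 0.183), and sham replicate 2 was just above the PRATA samples. Hnrnpul1 (-0.45 ± 0.17) also had separate groups, while Hnrnpd (-0.68 ± 0.24) and Hnrnpr (-0.54 ± 0.23) passed p under 0.05 with overlap. The abundant Hnrnpa1 (-0.44 ± 0.23, adjusted p = 0.337), Hnrnpa2b1 (-0.42 ± 0.23, adjusted p = 0.353) and Hnrnpk (-0.36 ± 0.22, adjusted p = 0.42) did not pass. Hnrnpl, which binds CA repeats, was the only hnRNP gene above 0 and read 99.8, 103 and 125 CPM after PRATA and 154, 78 and 88.1 CPM in the sham samples, at 0.03 ± 0.27 and adjusted p = 0.96. Its sign turned without PRATA replicate 3, sham replicate 2 or sham replicate 3. Several hnRNP genes have processed copies in mammalian genomes, so that their counts depend on how shared reads were assigned.

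All 9 SF3A and SF3B genes, whose products hold the U2 particle at the branch point, had log2 fold changes below 0, but 1 passed p under 0.05 (11.1%, near the 10.1% of all genes). That gene, Sf3b3, read 52.7, 57.6 and 59.9 CPM after PRATA and 131, 58.5 and 125 CPM in the sham samples. Sham replicate 2 lay within the PRATA range, and the other sham samples were well above it, at a log2 fold change of -0.89 ± 0.29 (SE; adjusted p = 0.196). Sf3b6, whose protein lies at the branch point adenosine, had the lowest log2 fold change of all members, -1.21 ± 0.56, but rested on 7 to 27 counts per library. It read 1.03, 0.558 and 0.712 CPM after PRATA and 0.898, 1.87 and 2.55 CPM in the sham samples, with overlapping groups and adjusted p = 0.298. Sf3b4 was at -0.44 ± 0.24 with adjusted p = 0.366, and its groups overlapped.

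Of the U2AF genes, U2af1, the subunit that contacts the AG at the end of the intron, read 36.8, 33.3 and 33 CPM after PRATA and 67.6, 36.4 and 66.6 CPM in the sham samples. Sham replicate 2 was within the PRATA range, at a log2 fold change of -0.73 ± 0.25 (SE; adjusted p = 0.208). U2af2, which binds the tract of pyrimidines before it, read 76.9, 74.3 and 76.1 CPM after PRATA and 111, 80.9 and 114 CPM in the sham samples, without overlap, at a log2 fold change of -0.43 ± 0.18 (SE; adjusted p = 0.258). U2af1l4, a paralog of U2af1, read 18.2, 13.9 and 20.9 CPM after PRATA and 14.4, 17.3 and 15.2 CPM in the sham samples, with overlapping groups, at 0.17 ± 0.21 and adjusted p = 0.693, and it was slightly below 0 without PRATA replicate 3 and sham replicate 1.

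Among 13 PRPF genes, 4 were lower at p under 0.05 (30.8%, against 10.1% of all genes), with a median of -0.29. Prpf3, part of the U4/U6 particle, read 33.3, 29.1 and 27 CPM after PRATA and 47.3, 42 and 67 CPM in the sham samples, at a log2 fold change of -0.81 ± 0.22 (SE; adjusted p = 0.168). Its groups did not overlap. Prpf4b, a kinase of the spliceosome, overlapped at -0.58 ± 0.25 and adjusted p = 0.263, as did Prpf38b at -0.55 ± 0.23. Prpf8, the large protein at the catalytic centre, differed little but evenly, with 277, 275 and 294 CPM after PRATA and 349.8, 332 and 353 CPM in the sham samples, at -0.29 ± 0.17 and adjusted p = 0.389. Above 0 were Prpf19, a scaffold ubiquitin ligase (0.25 ± 0.18, adjusted p = 0.481), Prpf31 (0.03 ± 0.16, adjusted p = 0.929) and Prpf40b (0.02 ± 0.17, adjusted p = 0.967), each with overlapping groups. The signs of Prpf31 and Prpf40b turned under other scalings.

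The neuronal regulators went in the other direction. Of the 12, 5 (41.7%) were higher at p under 0.05 and 0 were lower, where 8.19% and 10.1% of all genes were. In 6 (50%) the lowest PRATA sample exceeded the highest sham sample, where 11.6% of all genes did. Their summed level was 772, 599 and 672 CPM after PRATA and 432, 583 and 477 CPM after the sham operation, and the highest sham sample, replicate 2, was just below the lowest PRATA sample. The count of 5 ranged from 4 to 7 when 1 sample was left out and was 3 without PRATA replicate 3 and sham replicate 1, where the median was 0.46. Calls over all genes, both directions together, shifted as well. They were 2734 with all samples, 1406 to 4254 when 1 sample was left out and 1907 in the 4 samples. Sham replicate 2 was the highest sham sample in 9 of the 12 genes, again without a count over all genes.

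**Figure D4:**
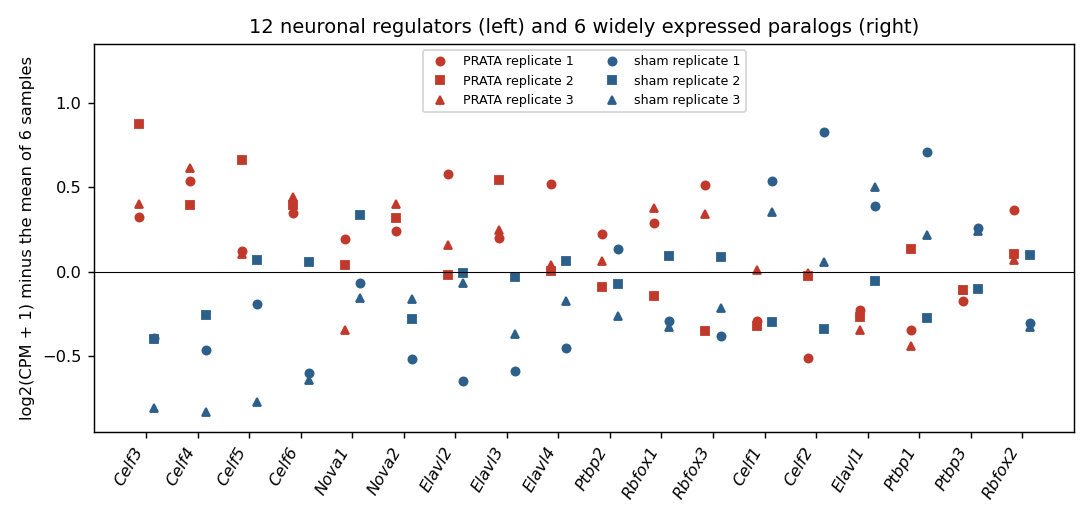
Log2(CPM + 1) minus the mean of the 6 samples for the 12 neuronal regulators and 6 widely expressed paralogs; red marks PRATA, blue sham, and the marker shape the replicate number. Celf3 to Celf6, Nova2 and Elavl3 have every PRATA sample above every sham sample, and Elavl1 and Ptbp3 have the opposite order.

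The CELF proteins bind GU-rich elements in introns and 3′ ends, and Celf3 to Celf6 form the branch that is mainly neuronal. Celf4 read 19.1, 17.2 and 20.2 CPM after PRATA and 9.05, 10.6 and 6.8 CPM in the sham samples. The PRATA samples were about at one level and well above all sham samples, at a log2 fold change of 1.10 ± 0.23 (SE; adjusted p = 0.156). Celf3 read 4.52, 7.09 and 4.82 CPM after PRATA and 2.35, 2.34 and 1.51 CPM in the sham samples, from 15 to 89 counts per library, and was also separate, at a log2 fold change of 1.41 ± 0.36 (SE; adjusted p = 0.166). Celf6 read 50.3, 51.9 and 53.8 CPM after PRATA and 25.6, 40.9 and 24.8 CPM in the sham samples, at a log2 fold change of 0.78 ± 0.22 (SE; adjusted p = 0.175). Celf5 read 9.29, 13.9 and 9.17 CPM after PRATA and 7.25, 8.9 and 4.53 CPM in the sham samples, with PRATA replicate 3 just above sham replicate 2, at a log2 fold change of 0.66 ± 0.32 (SE; adjusted p = 0.309). All 4 genes of this branch therefore had separate groups, as 11.6% of all genes did in this direction. Celf3 and Celf4 passed p under 0.05 with a log2 fold change over 1, met by 1.17% of all genes. The widely expressed Celf1, known from muscle RNA processing, read 32.9, 32.2 and 40.8 CPM after PRATA and 59.1, 32.8 and 52 CPM in the sham samples, at -0.45 ± 0.24 and adjusted p = 0.358. Celf2 read 17, 24.3 and 24.6 CPM after PRATA and 44.8, 19.4 and 25.8 CPM in the sham samples, at -0.45 ± 0.32 and adjusted p = 0.468. In both, sham replicate 2 lay within the PRATA range and sham replicate 1 was highest. The log2 ratio of Celf3 to Celf6 together against Celf1 and Celf2, chosen after the values were seen, was 0.74, 0.68 and 0.43 after PRATA and -1.23, 0.27 and -1.05 in the sham samples, without overlap.

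NOVA proteins bind YCAY clusters and were first known as neuronal autoantigens. Nova2 read 2.45, 2.63 and 2.85 CPM after PRATA and 1.04, 1.4 and 1.61 CPM in the sham samples, from 9 to 36 counts per library. The groups were separate at this low level, at a log2 fold change of 0.98 ± 0.39 (SE; adjusted p = 0.243). Nova1 read 4, 3.51 and 2.45 CPM after PRATA and 3.18, 4.53 and 2.93 CPM in the sham samples, from 29 to 46 counts, at -0.09 ± 0.36 and adjusted p = 0.919. Its groups overlapped, and its sign turned in some alternatives.

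The neuronal ELAVL proteins stabilise messages with AU-rich elements and regulate exons in neurons. Elavl3 (HuC) read 66.6, 84.5 and 68.7 CPM after PRATA and 38.1, 56.5 and 44.6 CPM in the sham samples, without overlap, at a log2 fold change of 0.66 ± 0.20 (SE; adjusted p = 0.18). Elavl2 (HuB) read 169, 111 and 126 CPM after PRATA and 71.6, 112 and 107 CPM in the sham samples, at a log2 fold change of 0.48 ± 0.24 (SE; adjusted p = 0.319). Elavl4 (HuD) read 177, 123 and 127 CPM after PRATA and 89.6, 129 and 109 CPM in the sham samples, at a log2 fold change of 0.38 ± 0.21 (SE; adjusted p = 0.369). In both, sham replicate 2 lay above at least 1 PRATA sample. Elavl1 (HuR), the paralog found in nearly all cells, was lower in all PRATA samples and read 29.9, 29 and 27.5 CPM after PRATA and 46.4, 33.9 and 50.2 CPM in the sham samples, at a log2 fold change of -0.60 ± 0.19 (SE; adjusted p = 0.193). The log2 ratio of the 3 neuronal ELAVL genes together to Elavl1, which does not depend on scaling between samples, was 3.78, 3.46 and 3.54 after PRATA and 2.10, 3.13 and 2.38 in the sham samples. The groups were separate with a difference of 1.06, and the exact two-sided permutation p was 0.1, the smallest that 3 against 3 samples allow (0.2 after adjustment over 2 ratios). Without PRATA replicate 3 and sham replicate 1 the difference was 0.87.

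PTBP1 represses many neuronal exons outside neurons and gives way to PTBP2 as neurons form. Ptbp2 read 65.7, 52.7 and 58.8 CPM after PRATA and 61.8, 53.2 and 46.7 CPM in the sham samples, with overlapping groups, at a log2 fold change of 0.13 ± 0.18 (SE; adjusted p = 0.724). Ptbp1 read 113, 158 and 106 CPM after PRATA and 236, 119 and 167 CPM in the sham samples, at a log2 fold change of -0.47 ± 0.28 (SE; adjusted p = 0.393), and its PRATA and sham ranges overlapped. The log2 ratio of Ptbp2 to Ptbp1 was -0.78, -1.58 and -0.84 after PRATA and -1.93, -1.16 and -1.84 in the sham samples. PRATA replicate 2 and sham replicate 2 crossed, the difference was 0.58, and the exact two-sided permutation p was 0.2 (0.2 after adjustment). Without PRATA replicate 3 and sham replicate 1 the difference was 0.32. Ptbp3, a further paralog, read 37.7, 39.4 and 39.5 CPM after PRATA and 51.3, 39.6 and 50.6 CPM in the sham samples, at -0.28 ± 0.17 and adjusted p = 0.408, with sham replicate 2 level with the highest PRATA samples.

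RBFOX proteins bind GCAUG and act on exons according to the side on which they bind. Rbfox1 read 99.5, 73.7 and 106 CPM after PRATA and 66.3, 87.1 and 64.8 CPM in the sham samples, at a log2 fold change of 0.36 ± 0.20 (SE; adjusted p = 0.381). Rbfox3, the NeuN antigen used to stain neurons, read 104, 56.8 and 92.6 CPM after PRATA and 55.7, 77.4 and 62.5 CPM in the sham samples, at a log2 fold change of 0.38 ± 0.25 (SE; adjusted p = 0.448). Rbfox2, which is expressed beyond neurons, read 98.2, 81.9 and 79.8 CPM after PRATA and 61.4, 81.5 and 60.5 CPM in the sham samples, at a log2 fold change of 0.35 ± 0.18 (SE; adjusted p = 0.336). All 3 genes had nearly the same log2 fold change and none passed p under 0.05, with PRATA replicate 2 low in Rbfox3. Of the 6 widely expressed paralogs, Rbfox2 alone was above 0. Elavl1 was the 1 paralog lower at p under 0.05 (16.7%, against 10.1% of all genes), and Elavl1 and Ptbp3 were the 2 with PRATA samples all below sham samples (33.3%, against 11.2%). The count of 1 was 5 without sham replicate 2 and 0 without sham replicate 3. In the same fits 4254 of 15438 and 1471 of 15758 genes were called in either direction.

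The sensory neuron markers differed in the same direction as the neuronal regulators (27 of 28 above 0), so each sample's mean log2(CPM + 1) of 27 such markers (Rbfox3 left out) was subtracted from the gene's own value. The median difference of the 12 regulators was 0.54 before and 0.04 after subtraction. Celf4 (0.54) and Celf6 (0.29) were still higher in every PRATA sample than in every sham sample. Celf3 had the largest difference (0.57), but its groups overlapped on this scale. Nova1 was lower without overlap (-0.57), and the other 8 regulators overlapped, between -0.36 for Ptbp2 and 0.16 for Elavl3. The pseudocount of 1 shrinks differences in genes at a few CPM, while the mean of the highly expressed markers is hardly affected. Before subtraction Celf3 differed by 1.07 on this scale, against a fitted log2 fold change of 1.41, and Nova2 by 0.64 against 0.98. Their values after subtraction are therefore too low, and the overlap of Celf3 depends on the pseudocount. Of the 6 paralogs, whose median was -0.88 after subtraction, Elavl1 (-1.05) and Celf1 (-0.89) were lower without overlap. The subtraction was not made for all genes, so the share of all genes with separate groups on this scale is not known. These values are descriptions, and the part of the neuronal share of RNA in the levels was not tested further.

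**Figure D5:**
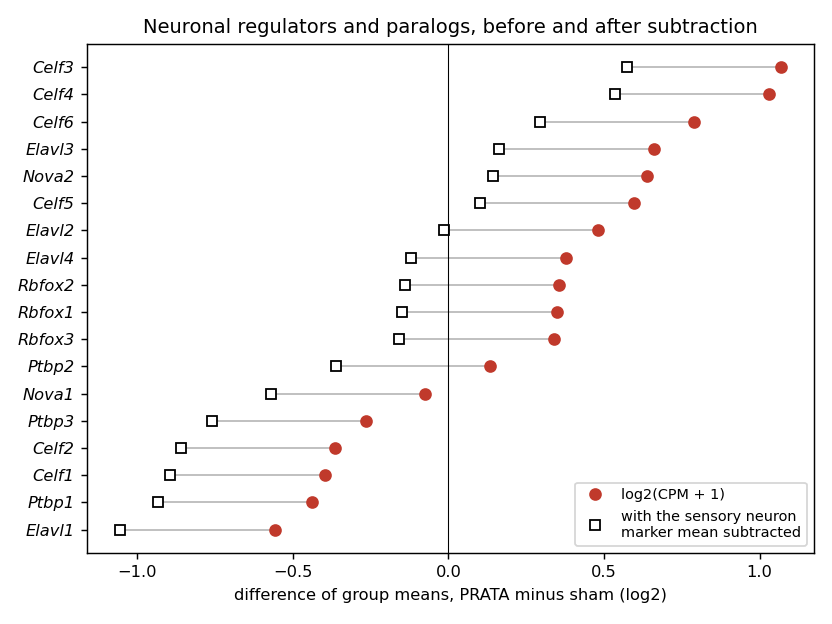
Difference of the group means (PRATA minus sham, log2 scale) for the 12 neuronal regulators and 6 paralogs, before (filled circles) and after (open squares) subtraction of each sample's mean of 27 sensory neuron markers. Subtraction moves all genes by the same amount, and Celf3, Celf4 and Celf6 stay furthest above 0.

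Other splicing genes, taken from lists of the pathway, were counted in the same way. Of 60 further genes of the spliceosome core, 4 were lower and 1 was higher at p under 0.05, with a median of -0.22, so that their share (6.67% lower) was not above that of all genes (10.1%). All PRATA samples lay below all sham samples in 13 of these genes (21.7%, against 11.2%). The helicase gene Ddx41 read 27.4, 35.1 and 32.7 CPM after PRATA and 67.8, 39.5 and 61.1 CPM in the sham samples, at -0.83 ± 0.23 and adjusted p = 0.171. Cwc22, which links the spliceosome to the exon junction complex, was at -0.70 ± 0.20, adjusted p = 0.175. Lsm4, a subunit of the ring on U6 RNA, was the 1 gene higher at p under 0.05 and read 34.5, 27.6 and 35 CPM after PRATA and 22.8, 25.6 and 23.4 CPM in the sham samples, at 0.44 ± 0.17 and adjusted p = 0.24. Snrnp25 of the minor spliceosome did not pass and overlapped at 0.53 ± 0.30 and adjusted p = 0.377.

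The SMN complex loads Sm proteins onto small nuclear RNAs, and further enzymes modify the proteins and the cap of the RNA. Of 18 genes listed for the SMN complex and this assembly, 5 were lower at p under 0.05 (27.8%, against 10.1% of all genes) and 0 were higher (against 8.19%), with a median of -0.26. Of the 5, Smn1 and Gemin5 belong to the SMN complex itself. Smn1, the gene lost in spinal muscular atrophy, read 9.55, 10 and 8.78 CPM after PRATA and 19, 16.4 and 22.7 CPM in the sham samples. The sham samples were all clearly above the PRATA samples, at a log2 fold change of -1.03 ± 0.20 (SE; adjusted p = 0.156). Gemin5, which recognises the small nuclear RNA, read 27.5, 24.1 and 23.4 CPM after PRATA and 39.5, 35.6 and 40.8 CPM in the sham samples, also without overlap, at a log2 fold change of -0.63 ± 0.16 (SE; adjusted p = 0.168). Ncbp1 (-0.68 ± 0.19), Prmt5 (-0.54 ± 0.19) and Tgs1 (-0.72 ± 0.30), chosen after their values were seen, were the other 3, and they encode a cap-binding protein, an arginine methyltransferase and the enzyme that methylates the cap of small nuclear RNAs. Gemin2, Gemin4, Gemin6 and Ddx20 did not pass. Gemin8 (0.23 ± 0.24, adjusted p = 0.644) and Gemin7 (0.11 ± 0.31, adjusted p = 0.879) were above 0 with overlapping groups.

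Of 58 other regulators of alternative splicing, 9 were lower (15.5%, against 10.1% of all genes) and 3 higher (5.17%, against 8.19%) at p under 0.05, with a median of -0.23. Srrm4 (nSR100), a neuronal activator of microexons, read 9.16, 8.92 and 6.88 CPM after PRATA and 4.01, 3.28 and 2.83 CPM in the sham samples. All PRATA samples exceeded all sham samples, at a log2 fold change of 1.29 ± 0.28 (SE; adjusted p = 0.156). Its relative Srrm3, also neuronal, read 60.5, 48 and 48.8 CPM after PRATA and 30.1, 33.1 and 29.7 CPM in the sham samples, without overlap, at a log2 fold change of 0.76 ± 0.17 (SE; adjusted p = 0.156). On the lower side, the Y-box gene Ybx3 read 64.7, 86.2 and 82.5 CPM after PRATA and 149.9, 132 and 216 CPM in the sham samples, at -1.09 ± 0.23 and adjusted p = 0.156. Syncrip, an hnRNP-like gene, read 103, 101 and 97.3 CPM after PRATA and 229, 124 and 244 CPM in the sham samples, at -0.99 ± 0.26 and adjusted p = 0.168. In both, each PRATA sample was below each sham sample.

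Of 18 genes of SR protein kinases and partners, 4 were lower at p under 0.05 (22.2%, against 10.1% of all genes), with a median of -0.20, and Prpf4b, already counted among the PRPF genes, was 1 of them. Scaf11 read 101, 102 and 107 CPM after PRATA and 165, 142 and 179 CPM in the sham samples, without overlap, at -0.65 ± 0.16 and adjusted p = 0.158, and Scaf4 overlapped at -0.65 ± 0.23 and adjusted p = 0.218. The kinase genes Srpk2 (0.27 ± 0.16, adjusted p = 0.391) and Clk3 (0.23 ± 0.19, adjusted p = 0.536) were above 0 with overlap. Of 18 genes of the exon junction complex and mRNA export, 3 were lower at p under 0.05 (16.7%, against 10.1% of all genes), with a median of -0.26. The export adaptor Alyref read 25.7, 26.6 and 23 CPM after PRATA and 43.9, 28.3 and 40.5 CPM in the sham samples, at -0.59 ± 0.20 and adjusted p = 0.216. Magoh, a core subunit of the exon junction complex, read 19.5, 17.7 and 20.1 CPM after PRATA and 39.7, 20.1 and 33.2 CPM in the sham samples, at -0.71 ± 0.25 and adjusted p = 0.22. Both had separate groups by a narrow margin to sham replicate 2, and Casc3 (0.10 ± 0.15, adjusted p = 0.743) and Thoc3 (0.12 ± 0.19, adjusted p = 0.767) overlapped.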

How the data were processed

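The deposited table holds raw counts of reads per gene, made by the authors without normalization. The study's methods name HISAT2, StringTie and Cuffdiff, and the submitters' processing notes name STAR 2.7.3a, RSEM and DESeq2. Which of them made the counts, the strand setting, the genome build and the annotation are not given in the sources used here. Labels do not say whether replicates came from separate animals, so p-values measure the spread between these samples, which may be technical.

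Counts were analysed with edgeR 4.0.16 in R 4.3.3 on all genes: filterByExpr (minimum count 10, minimum total 15), TMM scaling (factors 0.953 to 1.10), the quasi-likelihood test without covariates, two-sided, and Benjamini-Hochberg adjustment over 14919 genes. Levels are CPM, and a pseudocount of 1 was added before logarithms, except in the log2 ratios between genes. CPM was not divided by gene length, so levels are not compared between genes. Single values were compared by exact permutation over samples. The fits were tested on simulated data. Alternatives used DESeq2 1.42.0 and limma 3.58.1 (voom), other scalings and filters, a replicate block, left-out samples and protein-coding genes alone. The members and lists were chosen with earlier results of these data known. Named genes were all Rbfox, Celf, Nova, Elavl, Ptbp and U2af members, Snrpn and Srrm4, and those with the smallest p in each direction, 3 per other family and 2 per pathway list; further genes were named after their values were seen. A gene that this rule picks is not reported here. Marker and pathway lists came from general knowledge. Promoter sequences were taken from RefSeq (GRCr8), and no protein sequences were used. Depth was 5892967 to 15226952 counts, and floors of 3 counts cover counting error only. Plots were made in matplotlib 3.10.9 (Python 3.11.15).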

Additional observations from a re-analysis of the deposited data

How the results depend on the processing

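The direction of the class medians held in all settings tried, and 53 of 67 general genes, 11 of 12 neuronal regulators and 6 of 6 paralogs had the same sign in every setting. The counts of calls did not hold as well. At an unadjusted p under 0.05, 2734 genes were called in all, 4606 with voom and sample quality weights and 1528 with the replicate block. Calls numbered 1406 to 4254 when 1 sample was left out and 1907 without PRATA replicate 3 and sham replicate 1. At an adjusted p under 0.05, DESeq2 called 728 of 14919 genes, 502 lower and 226 higher (of 85 members, 9 lower and 1 higher). Voom with weights called 1173, 726 lower and 447 higher (15 members lower, 4 higher). The 4 samples without PRATA replicate 3 and sham replicate 1 called 13 (0 members). Fits that left out 1 sample called 0 to 721 (0 to 14 members lower and 0 to 2 higher). All of these came without sham replicate 2, where 559 of 15438 genes were lower and 162 higher. General genes lower numbered 28, but 17 with the replicate block, 9 in the 4 samples and 10 to 38 when 1 sample was left out. General genes higher numbered 1, but 0 in the 4 samples and 0 to 1 when 1 sample was left out. Neuronal regulators higher numbered 5, but 9 with voom weights and 3 in the 4 samples. Paralogs lower numbered 1, but 4 with voom weights, 0 in the 4 samples and 0 to 5 when 1 sample was left out, and paralogs higher numbered 0, but 1 with voom weights and 0 to 1 when 1 sample was left out. The cause of these shifts was not tested.

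Same-numbered samples deviated in opposite directions (correlations across genes of -0.39, -0.10 and -0.36), the labels tie no numbers together, and the block therefore shares only a number. No PRATA sample correlated best with its own number.

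Of the named genes, 9 turned sign. Hnrnpl was between -0.14 and 0.37 when 1 sample was left out, Nova1 between -0.25 and 0.11, Prpf31 between -0.038 and 0.10, Prpf40b between -0.066 and 0.12, Srsf5 between -0.28 and 0.41, Gemin7 between -0.13 and 0.29 and Thoc3 between -0.0094 and 0.20. In the 4 samples Nova1 was 0.017, Prpf31 -0.013, Prpf40b -0.049, Snrpn -0.11, U2af1l4 -0.031 and Thoc3 -0.027. Nova1 was 0.089 with voom weights, and Prpf40b -0.010 with voom weights, -0.0076 with DESeq2 size factors and -0.0090 with DESeq2. By library size alone Prpf31 was -0.0026 and Prpf40b -0.015, and with protein-coding genes alone Prpf40b was -0.014 and Srsf5 -0.010. Of 1006 values of 63 named genes under alternatives, 913 stayed on their side of the adjusted threshold with the same sign, 63 passed it and 30 turned sign. Celf3, Nova2, Srsf12 and Sf3b6 rest on few counts, with sham replicate 2, the shallowest library, lowest for Celf3, Nova2 and Srsf12 and the PRATA libraries lowest for Sf3b6.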

Other observations

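The RNA partners of the Snrp proteins were also in the table, as many near-identical rows that share reads, and they were summed after the values of the members had been seen. U1 (65 rows) summed to 7668, 7446 and 8340.4 CPM after PRATA and to 9733, 5378 and 6714 CPM in the sham samples, and U2 (46 rows) to 3550.1, 3327 and 3597 CPM against 4744, 2591 and 2783 CPM. U5 (10 rows) summed to 456, 354 and 584 CPM against 985, 258 and 271 CPM. U12 (4 rows), of the minor spliceosome, summed to 159, 108 and 185 CPM against 214, 87.6 and 84.6 CPM. In each of these 4 RNAs sham replicate 1 was the highest sample, both other sham samples were below all PRATA samples, and PRATA replicate 3 was the highest PRATA sample, an order that differs from that of the Snrp messages, where sham replicates 1 and 3 were mostly highest. Sham replicate 1 and PRATA replicate 3 also stood apart in Rn7sl1. U4 (28 rows) and U6 (226 rows) spanned 498 to 654 and 67.3 to 323 CPM after PRATA against 382 to 623 and 117 to 150.01 CPM in the sham samples. These CPM are scaled by the total counts alone, without TMM. Sums over short RNAs depend on fragment selection and on how reads of several copies were assigned, and neither is given in the sources used here.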
